A study of Arabidopsis thaliana with 2 samples.

Results

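The endoplasmic reticulum (ER) is where secreted and membrane proteins of a plant cell are translocated, glycosylated, folded and inspected, and the 41 genes described here encode that machinery and the sensors that adjust it. They were chosen by gene identifier from knowledge of the pathway and not by a threshold on their values. Earlier results of these data were, however, known when the list was made. They comprise BiP chaperones, calnexins and calreticulins, protein disulfide isomerases, ER J-domain proteins, subunits of oligosaccharyltransferase and of the translocon, ER degradation genes, and the regulators IRE1A, IRE1B, BZIP17, BZIP28 and BZIP60. Of the 41 members 39 were among the 18345 genes with values used here, and BIP3 (AT1G09080) and TIN1 (AT5G64510), genes strongly induced by ER stress, were not analysed here. Transcripts were measured by RNA sequencing in leaves of 2-week-old Arabidopsis thaliana after 24 h at 4 °C, in 1 library of the mutant npr1-1 and 1 library of the wild type Col-0. Both genotypes had long days throughout, with light of 90 µmol photons (per m2 and s) before the cold and 40 µmol during it, so the cold and the dimmer light were shared. The labels do not say how many plants went into a library.

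When unfolded proteins accumulate in the ER, BiP is drawn to them and away from BZIP28. IRE1 then splices the messenger of BZIP60, and BZIP17 and BZIP28 are carried to the Golgi, cut and released, so that all 3 factors can enter the nucleus and switch on folding and degradation genes. Many of these genes carry an ER stress response element (ERSE) in the promoter. NPR1, the gene mutated in npr1-1, is a transcriptional co-activator in salicylic acid signalling, and in salicylic acid-treated leaves it is known to be needed for the induction of secretory pathway genes. The npr1-1 allele is a missense change. The question put to the libraries was which leaf transcripts differ in the cold when NPR1 is mutated.

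Levels are the deposited CPM, that is, read counts scaled to a total of 1000000 over all listed genes, and the whole reads behind them were recovered from the values. The reads numbered 50976521 in npr1-1 and 50864103 in Col-0. Differences are given as npr1-1 minus Col-0 on the log2(CPM + 1) scale over the 13976 genes that reached 5 CPM in 1 library or both, a minimum that 37 members passed. Adding 1 CPM shrinks the difference of low genes. Ratios are npr1-1 over Col-0 of the CPM without that addition, each with a 95% exact (Clopper-Pearson) interval from the reads. With 1 library per genotype there was no replicate check and no test, and the intervals cover counting error only, since PCR copies are not separate molecules and the spread between plants was not measured. In a whole leaf, fewer cells of a type and less RNA per cell cannot be told apart. The NPR1 transcript stood at 18.7 CPM in npr1-1 and 22.0 CPM in Col-0, and a missense allele is not checked by that level. The tissue label was borne out by 4 leaf markers (LHCB1.3, LHCB2.1, RBCS1A and RCA) that summed to 39243 CPM in npr1-1 and 35117 CPM in Col-0, with ratios from 1.02 to 1.32. Of 5 root markers 3 were listed, summing to 52.0 CPM in npr1-1 and 50.1 CPM in Col-0, most of it from BGLU23, and 7 seed and flower markers were not analysed here. The part of these markers in the results was not tested.

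The promoters of the members hold the sequence that the stress factors are known to use, and the pairs BIP1 with BIP2 and CNX1 with CNX2 show it best, because the first pair carries it in both genes and the second in 1 gene. The 250 bases before the deposited gene start are given 5′ to 3′ on the gene's strand, read from the TAIR10.1 genome. Capitals mark the elements ERSE, ERSE-II and the core of the unfolded protein response element (UPRE).
BIP1 (AT5G28540), chr5:10543376-10543625, minus strand: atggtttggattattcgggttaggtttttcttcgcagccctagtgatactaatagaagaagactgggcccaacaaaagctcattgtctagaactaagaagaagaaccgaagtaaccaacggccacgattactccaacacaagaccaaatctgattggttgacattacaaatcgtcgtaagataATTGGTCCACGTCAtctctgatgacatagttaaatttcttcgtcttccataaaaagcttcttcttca
BIP2 (AT5G42020), chr5:16810647-16810896, minus strand: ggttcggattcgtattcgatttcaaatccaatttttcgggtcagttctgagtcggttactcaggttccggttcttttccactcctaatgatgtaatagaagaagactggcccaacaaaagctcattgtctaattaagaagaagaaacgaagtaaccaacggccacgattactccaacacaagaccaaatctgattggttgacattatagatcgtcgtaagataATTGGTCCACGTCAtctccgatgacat
CNX1 (AT5G61790), chr5:24829792-24830041, minus strand: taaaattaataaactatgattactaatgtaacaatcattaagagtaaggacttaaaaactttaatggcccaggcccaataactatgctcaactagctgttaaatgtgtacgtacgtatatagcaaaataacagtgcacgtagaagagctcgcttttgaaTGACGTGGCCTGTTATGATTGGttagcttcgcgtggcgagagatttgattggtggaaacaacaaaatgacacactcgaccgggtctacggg
CNX2 (AT5G07340), chr5:2316963-2317212, plus strand: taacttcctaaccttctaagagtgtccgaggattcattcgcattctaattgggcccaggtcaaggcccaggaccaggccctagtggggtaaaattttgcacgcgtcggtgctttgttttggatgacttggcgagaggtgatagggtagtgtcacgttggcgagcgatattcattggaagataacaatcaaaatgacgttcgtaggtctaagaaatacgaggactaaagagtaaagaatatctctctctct
BIP1 and BIP2 share an identical run of 60 bases upstream of the capitals, whereas the longest run common to CNX1 and CNX2 is 9 bases. The window of CNX2 has none of the 3 elements.

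Other members carry the ERSE (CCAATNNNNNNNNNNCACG, searched on both strands) in a similar place, and the sites are shown in one orientation to let their fixed and free bases be compared, with the fixed bases in capitals.
HSP70-17 (AT4G16660): CCAATgaaaatattcCACG
ERDJ3B (AT3G62600): CCAATaaatattagcCACG
P58IPK (AT5G03160), the site nearer to the start: CCAATcgttatgaccCACG
P58IPK, the farther site: CCAATgataattaaaCACG
SEC61 alpha (AT1G29310): CCAATaatacggataCACG
CRT1 (AT1G56340): CCAATtagttaaataCACG
CRT2 (AT1G09210): CCAATaggtaaccgaCACG
UGGT (AT1G71220): CCAATcagtggcgccCACG
PDIL1-1 (AT1G21750): CCAATtagagatagcCACG
PDIL1-2 (AT1G77510): CCAATgaaaactctcCACG
PDIL2-2 (AT1G04980): CCAATgatattgtcaCACG
HRD3A (AT1G18260): CCAATagtaaccggcCACG
HRD1B (AT1G65040): CCAATgatataacgaCACG
With CNX1 these made 13 members with 14 ERSE sites, and BIP1 and BIP2 had ERSE-II (ATTGGNCCACG) instead. All 16 sites began between 27 and 127 bases before the deposited start.

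As a set, transcripts of the ER machinery were lower in the npr1-1 library by a modest amount. Of the 37 members past the minimum 34 had a difference below 0, against 59% of all genes, and their median difference was -0.24, against -0.05 for all genes. By a mild threshold on the log2(CPM + 1) scale 12 members were at least 20% lower in npr1-1, against 9.09% of all genes. On that scale 0 members were at least 25% higher, against 6.11%. IRE1A, with a ratio of 0.798, was past 20% lower only without the added 1 CPM. At 1.5-fold, 3 members were lower, against 2.06% of all genes, and 0 were higher, against 0.909%. The 3 were CRT3, PDIL2-2 and HRD1B, and none of the 37 was 2-fold apart on the log2(CPM + 1) scale. The reads of the 39 listed members summed to 1978 CPM in npr1-1 and 2408 CPM in Col-0, a ratio of 0.822 (0.815 to 0.828). The counting interval lay wholly below 1 for 30 of the 37 members, and for the other 7 it included 1. At this depth small differences suffice for that, as for STT3A with a ratio of 0.939. The same count was not made over all genes, so the 30 cannot be set against a background. With median-ratio scaling 31 of 37 differences were below 0, against 51.1% of all genes, and the members' median was -0.20. STT3B, PDIL2-3 and ERO2 were those that turned above 0 by this scaling.

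**Figure D1:**
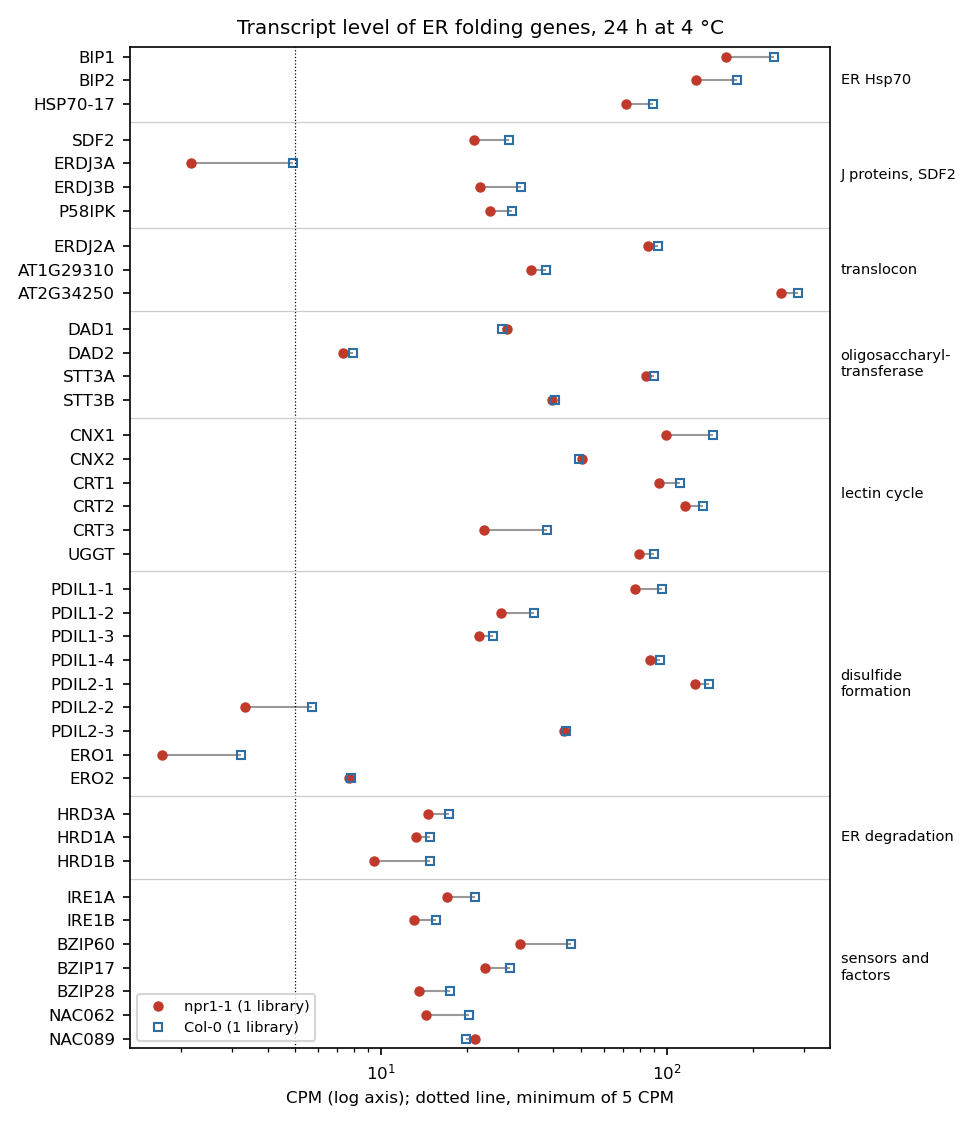
Level of the 39 listed members in CPM on a log axis, with filled circles for npr1-1 and open squares for Col-0, 1 library each, grouped by role. The circle lies left of the square for most members, with the widest gaps at BIP1, CNX1, CRT3, ERDJ3A, PDIL2-2, ERO1, HRD1B and BZIP60, while DAD1, CNX2 and NAC089 have the circle on the right.

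The ER Hsp70 chaperones bind unfolded stretches of proteins as they enter the lumen, and all 3 listed members were lower in npr1-1. BIP1 stood at 161 CPM in npr1-1 and 236 CPM in Col-0, and BIP2 at 126 CPM in npr1-1 and 176 CPM in Col-0. Their transcripts are 97.2% identical over 2122 bases, which leaves the assignment of reads to either gene uncertain, and the sum of the pair is the firmer value. The sum was 286 CPM in npr1-1 and 412 CPM in Col-0, a ratio of 0.695 (0.680 to 0.710). HSP70-17, a larger Hsp70 relative of the lumen, stood at 71.5 CPM in npr1-1 and 88.8 CPM in Col-0, a ratio of 0.805. Per kilobase of gene model, BIP1 was the second of the 39 members in Col-0, at 102 CPM per kb, and the third in npr1-1, at 69.3 CPM per kb.

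J-domain proteins stimulate the ATPase of BiP and hand clients to it. SDF2 and ERDJ3B, which form one complex with BiP, were lower to a similar degree. SDF2 (AT2G25110) stood at 21.0 CPM in npr1-1 and 28.0 CPM in Col-0, and ERDJ3B at 22.1 CPM in npr1-1 and 30.9 CPM in Col-0, with ratios of 0.750 and 0.715. P58IPK, a co-chaperone of BiP, stood at 24.0 CPM in npr1-1 and 28.6 CPM in Col-0, and its model overlaps AT5G03170 on the other strand by 56 bases. ERDJ3A (AT3G08970), a J protein needed for pollen tube growth at high temperature, had the lowest ratio of all listed members. It had 110 reads in npr1-1 and 250 reads in Col-0, that is, 2.16 CPM in npr1-1 and 4.92 CPM in Col-0, a ratio of 0.439 (0.348 to 0.552), and so stayed just under the minimum. Its promoter window was the only one of the 39 with a heat shock element.

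Translocon and glycosylation genes, which act first on an incoming chain, had the summed ratios nearest to 1. That of the translocon, 0.881 (0.864 to 0.899), was close to the 0.874 (0.857 to 0.890) of disulfide formation. The 2 genes for the channel subunit SEC61 alpha were both a little lower. AT2G34250, the member with the highest CPM per kilobase in both libraries, stood at 249.6 CPM in npr1-1 and 288 CPM in Col-0. AT1G29310 stood at 33.4 CPM in npr1-1 and 37.6 CPM in Col-0. ERDJ2A (AT1G79940), the J protein of the translocon, stood at 85.4 CPM in npr1-1 and 92.8 CPM in Col-0, and the ratios of the 3 genes lay between 0.868 and 0.920.

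Oligosaccharyltransferase transfers the N-glycan to the chain, and its 4 members were close in both libraries. The catalytic subunit STT3A (AT5G19690) stood at 84.2 CPM in npr1-1 and 89.6 CPM in Col-0, and its relative STT3B (AT1G34130) at 39.4 CPM in npr1-1 and 40.6 CPM in Col-0. Of the genes for its small subunit, DAD1 (AT1G32210) stood at 27.6 CPM in npr1-1 and 26.5 CPM in Col-0, and DAD2 (AT2G35520) at 7.36 CPM in npr1-1 and 7.98 CPM in Col-0. The counting interval included 1 for DAD1, DAD2 and STT3B. The summed ratio of the 4 genes was 0.963 (0.934 to 0.993), nearer to 1 than that of any other role.

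In the lectin cycle, calnexin and calreticulin hold glycoproteins until they are folded, and UGGT marks those that are not. The members of this cycle diverged within families. CNX1 stood at 98.9 CPM in npr1-1 and 145 CPM in Col-0, a ratio of 0.682 (0.657 to 0.707), whereas CNX2 stood at 50.3 CPM in npr1-1 and 49.0 CPM in Col-0, a ratio of 1.03 (0.972 to 1.09). These transcripts are 83.4% identical over 1620 bases, and their intervals do not overlap. CRT3 (AT1G08450), the calreticulin known for its part in the folding of the immune receptor EFR and the brassinosteroid receptor variant bri1-9, stood at 23.0 CPM in npr1-1 and 38.0 CPM in Col-0, a ratio of 0.604 (0.561 to 0.650). Its difference of -0.70 was the lowest of the members past the minimum, and 1.34% of all genes had a lower one. The more abundant calreticulins were nearer to 1. CRT1 stood at 93.3 CPM in npr1-1 and 111 CPM in Col-0, and CRT2 at 116 CPM in npr1-1 and 133 CPM in Col-0. UGGT stood at 79.6 CPM in npr1-1 and 90.0 CPM in Col-0, a ratio of 0.885.

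**Figure D2:**
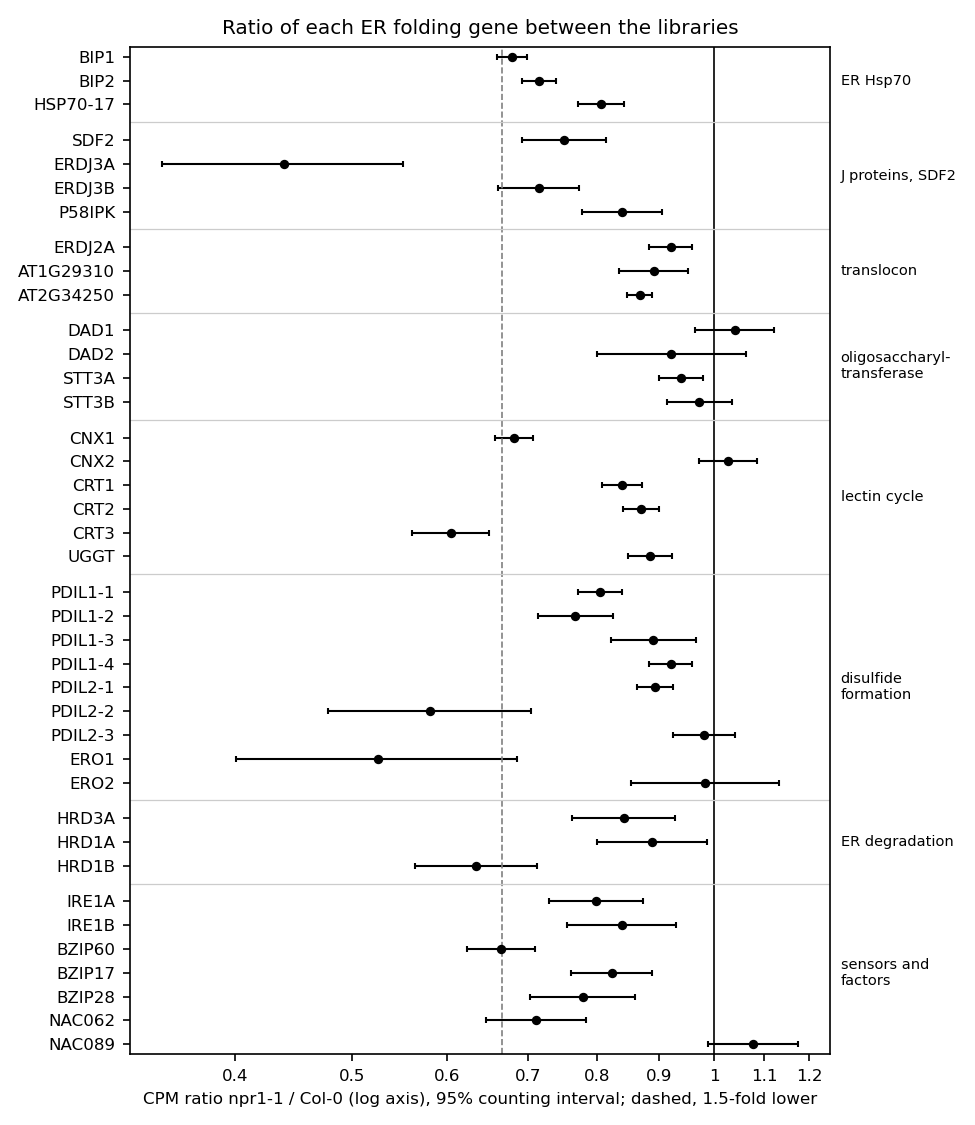
CPM ratio of npr1-1 over Col-0 on a log axis for the 39 listed members, with horizontal bars for the 95% counting interval, 1 library per genotype. ERDJ3A and CRT3 lie left of the dashed line at 1.5-fold lower with their whole intervals, oligosaccharyltransferase genes lie near 1, and CNX2 and NAC089 lie above 1 with intervals that include it.

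Disulfide bonds are made in the lumen by protein disulfide isomerases, which ERO1 proteins reoxidize. All 7 isomerase genes had ratios below 1, from 0.581 to 0.981, although PDIL2-3 turned above 0 in its log2 difference, to 0.01, under median-ratio and trimmed-mean scaling. Of the abundant genes, PDIL1-1 stood at 77.0 CPM in npr1-1 and 95.7 CPM in Col-0, and PDIL2-1 (AT2G47470) at 125 CPM in npr1-1 and 140.3 CPM in Col-0. PDIL1-2 stood at 26.3 CPM in npr1-1 and 34.3 CPM in Col-0, a ratio of 0.767 that was the lowest but one of the 7. PDIL1-3 (AT3G54960) stood at 21.9 CPM in npr1-1 and 24.6 CPM in Col-0, and PDIL1-4 (AT5G60640) at 86.9 CPM in npr1-1 and 94.4 CPM in Col-0. The relatives PDIL2-2 and PDIL2-3 stood apart. PDIL2-2 had 170 reads in npr1-1 and 292 reads in Col-0, that is, 3.33 CPM in npr1-1 and 5.74 CPM in Col-0, a ratio of 0.581 (0.478 to 0.704), while PDIL2-3 (AT2G32920) stood at 43.4 CPM in npr1-1 and 44.3 CPM in Col-0. A like split was seen in the oxidases. ERO1 (AT1G72280), under the minimum, had 87 reads in npr1-1 and 165 reads in Col-0, a ratio of 0.526 (0.401 to 0.686), and ERO2 (AT2G38960) stood at 7.73 CPM in npr1-1 and 7.86 CPM in Col-0, with an interval from 0.853 to 1.13.

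ER-associated degradation sends terminally misfolded proteins to the proteasome through the ubiquitin ligases HRD1A and HRD1B and their partner HRD3A. HRD1A (AT3G16090) and HRD1B had the same 14.8 CPM in Col-0 and differed in npr1-1, where HRD1A stood at 13.2 CPM and HRD1B at 9.42 CPM. The ratio was 0.888 (0.799 to 0.987) for HRD1A and 0.634 (0.565 to 0.712) for HRD1B. HRD1B lies on chromosome 1, 304 kb from NPR1. Of the 229 genes past the minimum within 1 Mb of NPR1, 10 were at least 1.5-fold lower in npr1-1, a larger share than the 2.06% of all genes, and 1 was at least 1.5-fold higher. Their median difference was -0.05, and the part of this position in the value of HRD1B was not tested. HRD3A stood at 14.6 CPM in npr1-1 and 17.3 CPM in Col-0, a ratio of 0.841.

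The 5 sensors and factors of the unfolded protein response were all lower in npr1-1, and BZIP60 the most. BZIP60 (AT1G42990) stood at 30.6 CPM in npr1-1 and 46.0 CPM in Col-0, a ratio of 0.665 (0.624 to 0.710). On the log2(CPM + 1) scale its difference of -0.57 just missed 1.5-fold. The counts are of the whole gene, so the spliced and unspliced forms of its messenger were not told apart. Its splicing enzymes IRE1A (AT2G17520) and IRE1B (AT5G24360) stood at 17.0 and 13.0 CPM in npr1-1, against 21.3 and 15.5 CPM in Col-0. BZIP28 (AT3G10800) stood at 13.5 CPM in npr1-1 and 17.4 CPM in Col-0, and BZIP17 (AT2G40950), which also serves in salt stress, at 23.1 CPM in npr1-1 and 28.1 CPM in Col-0. The ratios of these 4 genes ran from 0.778 to 0.838.

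Beside them are membrane-bound NAC factors that are released under stress. NAC062 (AT3G49530), which is activated by cold and is known to induce PR genes, stood at 14.4 CPM in npr1-1 and 20.2 CPM in Col-0, a ratio of 0.711 (0.646 to 0.783). NAC089 (AT5G22290), a factor in ER stress-induced cell death, was the highest member, at 21.2 CPM in npr1-1 and 19.7 CPM in Col-0, with a ratio of 1.08 whose interval from 0.988 to 1.18 included 1.

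**Figure D3:**
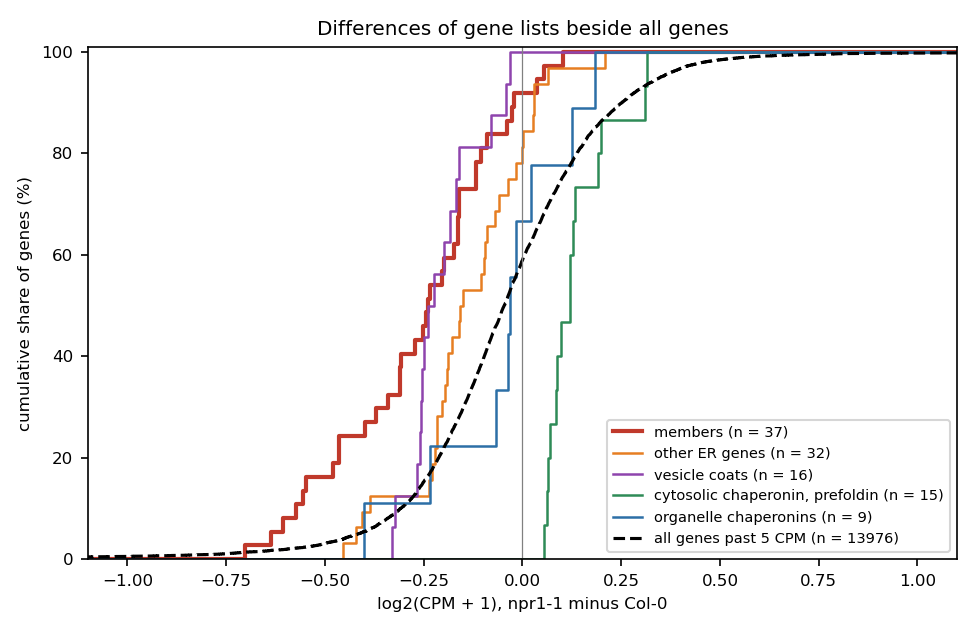
Cumulative share of genes (%) against the log2(CPM + 1) difference, npr1-1 minus Col-0, for the members, for 4 other gene lists and for all genes past 5 CPM. The curve of the 37 members lies left of that of all 13976 genes through most of its range, and the 15 cytosolic chaperonin and prefoldin genes all lie right of 0.

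Other genes of the pathway were examined from a list of 36, of which 32 passed the minimum. Of these 26 were below 0, against 59% of all genes, and the median difference was -0.15. At least 20% lower were 4 of the 32, a share near the 9.09% of all genes, and 0 were 1.5-fold lower or higher. The 4 act at different steps: BI-1, an ER membrane protein that restrains cell death, had 88.0 CPM in npr1-1 and 121 CPM in Col-0, and the derlin gene DER2.1 had 13.0 CPM in npr1-1 and 17.7 CPM in Col-0. CDC48A, the ATPase that pulls degradation substrates from the membrane and also has roles outside the ER, had 622 CPM in npr1-1 and 825 CPM in Col-0. SHD, the ER member of the HSP90 family, had 169 CPM in npr1-1 and 222 CPM in Col-0. MNS5, a mannosidase gene of ER degradation, was the highest of the 32, with a difference of 0.21. Under the minimum, NAC103, a known target of BZIP60, was higher in npr1-1, with 221 reads in npr1-1 and 53 reads in Col-0, a ratio of 4.16 (3.07 to 5.73).

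Folding machines of other compartments gave other values. All 15 genes of the cytosolic chaperonin and prefoldin, which fold tubulin and actin, were above 0, with a median of 0.12 and a range from 0.05 for CCT6A to 0.31 for PFD2, and 0 of them were 25% higher on the log2(CPM + 1) scale, although PFD1 (27.9 CPM in npr1-1, 22.3 CPM in Col-0) and PFD2 (30.6 CPM in npr1-1, 24.4 CPM in Col-0) were just past 25% without the added 1 CPM. Chaperonins of chloroplasts and mitochondria had a median of -0.03 over 9 genes, and ran from -0.40 for CPN60B2 to 0.18 for CPN60B3. Coat genes of vesicles that shuttle between ER and Golgi were nearest to the members. All 16 past the minimum were below 0, with a median of -0.23, close to the members' -0.24. Their range was narrower, from -0.33 for the alpha-COP gene AT2G21390 to -0.03 for SEC13A, where the members ran from -0.70 to 0.10. The coat genes are long, with a median model length of 3213.5 bases, against 1900 for the members and 1614 for all genes. Longer genes tended to be lower in npr1-1, and the part of length in the coat genes' values was not tested.

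The promoter elements set out above were far more frequent among the members than in general. Many genes of this pathway are known to carry an ERSE, so the choice of members favoured that outcome. An ERSE or ERSE-II was present in the windows (250 bases before to 50 after the start) of 15 of 37 members past the minimum, or 40.5%, against 1.57% of the 13897 nuclear genes past the minimum. With the window placed at the RefSeq start, which is often farther upstream, it was in 12 of 37 members and 180 of 13830 genes, and with 500 bases before the deposited start in 15 of 37 members and 2.01% of genes. The UPRE core TGACGTG was in 27.0% of members and 4.33% of all windows, and the G-box CACGTG in 37.8% and 10.2%. These are not separate counts, since the UPRE core overlapped an ERSE or ERSE-II in 6 members and the G-box overlapped an ERSE in 7. The letters GAAGAAGAA are the core of the TL1 element described in NPR1-dependent secretory genes. They were in 6 of 37 members, or 16.2%, against 13.2% of all windows, a share near the background for this window. At the RefSeq start the shares were 16.2% of members and 6.87% of genes. With 500 bases before the deposited start they were 24.3% and 17.3%, so the nearness to the background depended on the window. The heat shock element GAANNTTCNNGAA was in 0 of the 37 and in 0.676% of all windows.

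**Figure D4:**
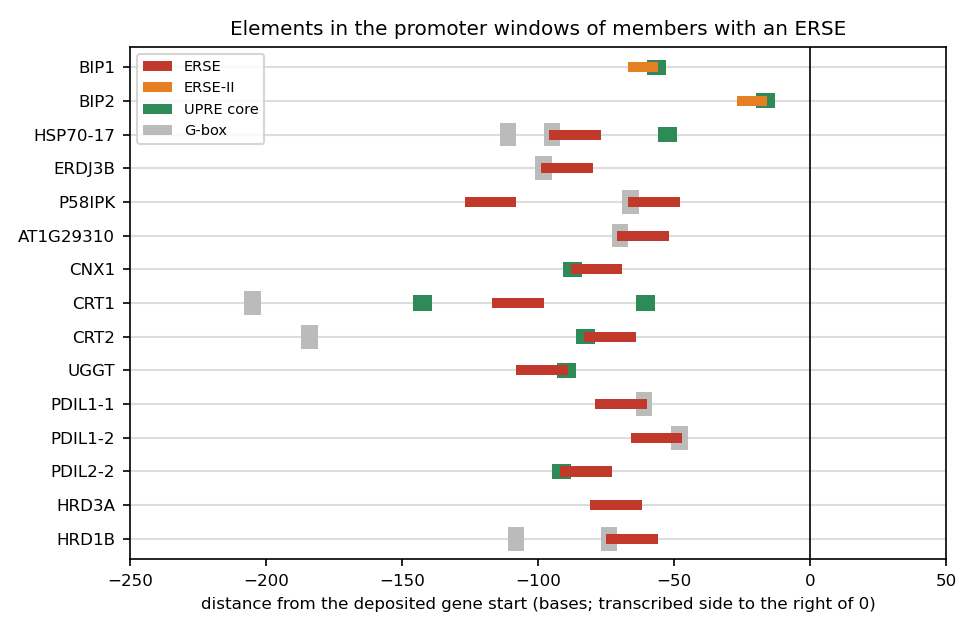
Positions of 4 promoter elements, in bases from the deposited gene start, in the windows of the 15 members with an ERSE or ERSE-II. The ERSE and ERSE-II bars of all 15 begin 27 to 127 bases before the start, and several overlap a UPRE core or a G-box.

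Members with and without the element overlapped in their differences. The 15 with it had a median of -0.31 and ran from -0.64 to -0.16, and the 22 without it had a median of -0.16 and ran from -0.70 to 0.10. All 15 were below 0, with 7 of them at least 20% lower, against 19 of 22 below 0 and 5 at least 20% lower. At the RefSeq start the medians were -0.31 for 12 members with it and -0.16 for 25 without, with 5 and 7 at least 20% lower. Splits by the G-box and by the TL1 core share many genes with this one, so they are not separate results. Carriers of both a G-box and an ERSE were AT1G29310, CRT1, CRT2, P58IPK, HSP70-17, PDIL1-1, PDIL1-2, ERDJ3B and HRD1B. Carriers of both the TL1 core and an ERSE or ERSE-II were UGGT, PDIL1-2, BIP1, BIP2 and HRD1B. For the G-box the medians were -0.33 for 14 members with it and -0.16 for 23 without, with 7 and 5 at least 20% lower. For the TL1 core the medians were -0.47 for 6 members with it and -0.20 for 31 without. Of these members 5 with it and 7 without were at least 20% lower. Outside the members, genes with the TL1 core had a median of -0.07, against -0.05 for all genes with a window. The part of the ERSE or ERSE-II in the members' differences was not tested. CRT3, BZIP60 and NAC062 lacked the element and were among the lowest. UGGT and AT1G29310 carried it and were less than 20% lower. Within the calnexin pair the gene with the element was the lower one, and so it was in the pairs PDIL2-2 with PDIL2-3 and HRD1B with HRD1A. The SEC61 alpha pair was not told apart by the counts. The difference was -0.16 for AT1G29310, which has the element, and -0.20 for AT2G34250, which lacks it. The ratio interval of AT1G29310, 0.834 to 0.951, contained that of AT2G34250, 0.847 to 0.889. Both calreticulins with it, CRT1 and CRT2, were nearer to 1 than CRT3, which lacks it. Neither length nor level set the 37 members in order among themselves. Spearman's rho across them was -0.01 between model length and difference and 0.02 between level and difference, values that describe genes of the same libraries. Across all 13976 genes past the minimum the values were -0.19 and 0.05, so longer genes tended to be lower in npr1-1. The members were longer, with a median model length of 1900 bases against 1614 for all genes. After subtracting the median of 20 length bins, the members' median was -0.18, and 31 of 37 were below 0, against 49.96% of all genes. With that correction 11 members were at least 20% lower, against 6.60% of all genes. Beyond this correction, the part of length in the members' differences was not tested.

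**Figure D5:**
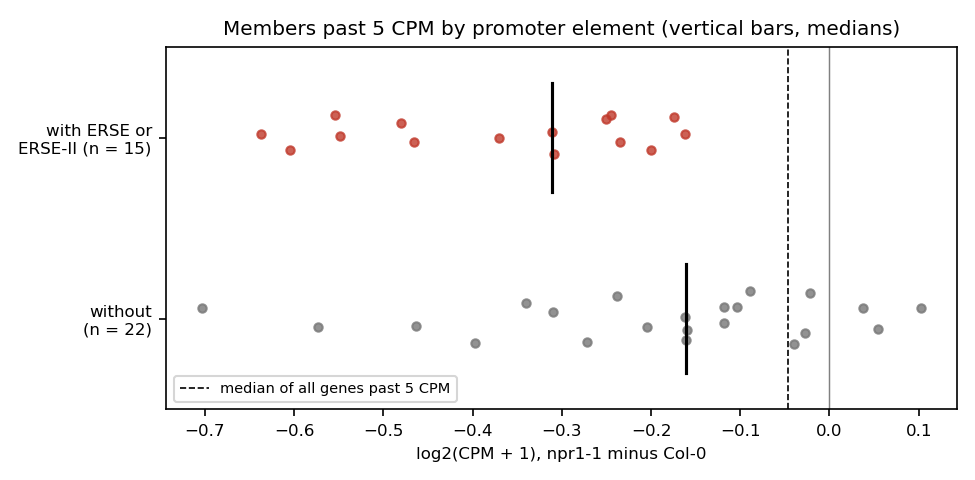
log2(CPM + 1) difference, npr1-1 minus Col-0, of the 37 members past 5 CPM, split by the presence of an ERSE or ERSE-II, with a point per gene (jittered vertically) and vertical bars at the medians. The 15 genes with the element all lie between -0.64 and -0.16, and the 22 without it reach from -0.70 to 0.10.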

How the data were processed

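Gene-level CPM of 2 leaf libraries, 1 of npr1-1 and 1 of Col-0, were used as deposited by the authors, with a decimal comma and a total of 1000000 per library, and samples were grouped by the genotype label. The submitters' processing notes list TopHat2, DESeq2 and TAIR10 without giving their roles. No source used here names the read counter, its use of strand or the gene filter. Dividing by the value of 1 read gave whole numbers within 0.01 for 100% of values. No test was run, as 1 library per genotype leaves no spread. Coordinates of gene models are those of the deposited table, and all 18145 nuclear genes matched by identifier overlapped their RefSeq gene in TAIR10.1, from which promoter sequences were read. Near-identical transcripts were sought with BLAST+ 2.17.0 at 95% identity over 50% of the length. Members, gene lists, thresholds (1.5-fold, 2-fold, and 20% lower or 25% higher) and the rule for named genes (all members, and of other lists those past 1.5-fold and the extremes) were chosen with earlier results of these data known. BI-1, DER2.1, CDC48A, SHD and the motifs were named after values were seen. Alternatives were other pseudocounts, minimums, folds, scalings, a correction for length and summed paralogs. Added later were other promoter windows, sums by role and the ratio without pseudocount. The procedure was tested on simulated data. Python 3.11.15, numpy 2.4.6, pandas 2.3.3, scipy 1.17.1, pysam 0.24.0 and matplotlib 3.10.9 were used.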

Additional observations from a re-analysis of the deposited data

How the results depend on the processing

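The members' median of -0.24 kept its sign under every alternative run, from -0.27 as a mean to -0.18 after subtracting the median of 20 length bins, and was -0.22 without BIP1, BIP2 and P58IPK. The count of 3 members at least 1.5-fold lower is fragile. It became 1 with a pseudocount of 5 CPM and with a minimum of 20 CPM, 5 with no minimum, 12 at the threshold of 20% lower, 0 at 2-fold, and 6 on the ratio with neither pseudocount nor minimum. With no minimum ERDJ3A and ERO1 enter, and on the plain ratio BZIP60 passes as well. PDIL2-2 and HRD1B lie under a minimum of 20 CPM, which leaves CRT3. A pseudocount of 5 CPM shrinks the differences of PDIL2-2 and HRD1B to -0.37 and -0.46, short of 1.5-fold, and again leaves CRT3. Over all genes the 288 lower and 127 higher became 158 and 68 with a pseudocount of 5 CPM, 130 and 52 with a minimum of 20 CPM, 1271 and 854 at 20% lower or 25% higher, and 74 and 28 at 2-fold, and with no minimum 449 were lower. Trimmed-mean scaling gave 31 members below 0. Of 263 values of single members under other settings 16 moved by more than their counting interval, and 11 values of 5 members with differences near 0 (DAD1, STT3A, STT3B, PDIL2-3 and ERO2) changed sign. Depth limits only the lowest members, and the spread between plants was not measured. No library could be left out. No paired analysis was possible because each genotype has 1 library.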

Other observations

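Outside the members, 203 nuclear genes past the minimum had an ERSE or ERSE-II in the same promoter window. Of these 69.0% had a difference below 0, 13.8% were at least 20% lower in npr1-1, against 9.05% of all genes with a window, and their median was -0.08, between those of the members with the element and of all genes. Other motifs gave like values outside the members. For the UPRE core 68.6% were below 0, 12.2% at least 20% lower and the median -0.09, and for the G-box 67.0%, 12.8% and -0.10. The 16 genes outside the members with ERSE-II went the other way, with a median of 0.06 and 37.5% below 0. Among the 32 other ER genes past the minimum, 6 had an ERSE, namely SHD, BI-1, DER1, EBS7, OS9 and an OST3/6 gene. All 6 were below 0 with a median of -0.23, against -0.10 for the 26 without it.

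Summed by role, the ratio of npr1-1 to Col-0 was 0.714 for the ER Hsp70 genes, 0.749 for J proteins and SDF2, 0.790 for sensors and factors, 0.791 for degradation, 0.814 for the lectin cycle, 0.874 for disulfide formation, 0.881 for the translocon and 0.963 for oligosaccharyltransferase.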
